A study of Bos indicus with 12 samples.

Results

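High-yielding cows were compared with low-yielding cows over 2 indigenous Bos indicus breeds, Gir and Shweta Kapila, with breed as a block. All 12 of the 12 sequenced cows entered, 6 in each yield class. They form 4 groups of 3 cows each, namely Gir high, Gir low, Shweta Kapila high and Shweta Kapila low yield. The cows were females in the second or the third lactation, and were sorted into yield classes within their breed from lactation records, so a high-yielding cow of one breed need not give more milk than a low-yielding cow of the other. No treatment or mutation is named for any group, and milk yields, ages and days in milk are not used here. The account turns on genes and gene lists whose difference between high and low yield (log2 fold change, positive where high-yielding cows had more) had the same sign in each breed. The cows of one breed served neither as cases nor as controls in the other, so the pair of within-breed differences share no cow.

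Blood does not make milk, but it carries the glucose, fatty acids, calcium and hormones that the udder draws on. Its leukocytes respond to the same hormones and metabolites as other tissues, among them fatty acids, insulin, prolactin, glucocorticoids and vitamin D. They also carry the defence against infection, including antiviral interferon responses, antibody-making B cells and the myeloid cells (monocytes and neutrophils) that enter the udder.

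Total counts ran from 14.2 to 27.2 M per cow (M for mega), and 10 counts equal 0.704 counts-per-million (CPM) in the smallest and 0.368 CPM in the largest library. The 6 totals of each class were 19.4 ± 3.97 M for high and 19.6 ± 4.28 M for low yield (mean ± SD, n = 6; exact permutation within breeds, 2-sided p = 0.92, smallest p possible 0.005). Along the first principal component of log2 CPM (37.7% of the variance) the Shweta Kapila cows high 3, low 1 and low 2, which are the 3 largest libraries, stood at 45.6, 104 and 63.7. The Shweta Kapila cows low 3, high 1 and high 2 stood at −54.3, −62.4 and −13.0, so that cows of both yield classes lie on each side. The labels name peripheral blood mononuclear cells, yet the RNA kit they name takes in whole blood, and granulocyte genes were measured in every cow. Of 23 neutrophil symbols 14 were matched to an identifier, and all 14 passed the filter on low counts. Among them CSF3R, the G-CSF receptor, ran from 479 to 2147 CPM and S100A9, a calcium-binding protein of neutrophils and monocytes, from 350 to 1432 CPM. The red cell gene ALAS2, the first enzyme of haem synthesis in red cells, ran from 8.88 to 528 CPM. The samples are therefore called blood here.

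No gene passed the test over both breeds. Of 15420 tested genes, edgeR's quasi-likelihood test called 0 (0%) at a false discovery rate of 0.05 (lowest adjusted p = 0.874). The unadjusted p of that test was under 0.05 for 577 genes (3.74%), with 296 higher (1.92%) and 281 lower (1.82%) in high-yielding cows. DESeq2 called 3 genes, PPIC, KCNT1 and DCSTAMP, all higher, with 787 at an unadjusted p under 0.05, and limma-voom with sample weights called 0, with 1312. The difference had the same sign in each breed for 8321 genes (54%), of which 3827 (24.8%) were higher and 4494 (29.1%) lower with high yield. This share was 50.5% among the 1910 genes with a mean log2 CPM under 0, and 56.0% among the 3165 genes at 6 and over. Across all genes the log2 fold changes of the breeds were nearly unrelated (Pearson r = 0.02, Spearman rho = 0.05), as a description, since genes are not independent. The samples mix cell types, so for every gene below fewer cells of a type and less RNA per cell cannot be told apart.

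**Figure D1:**
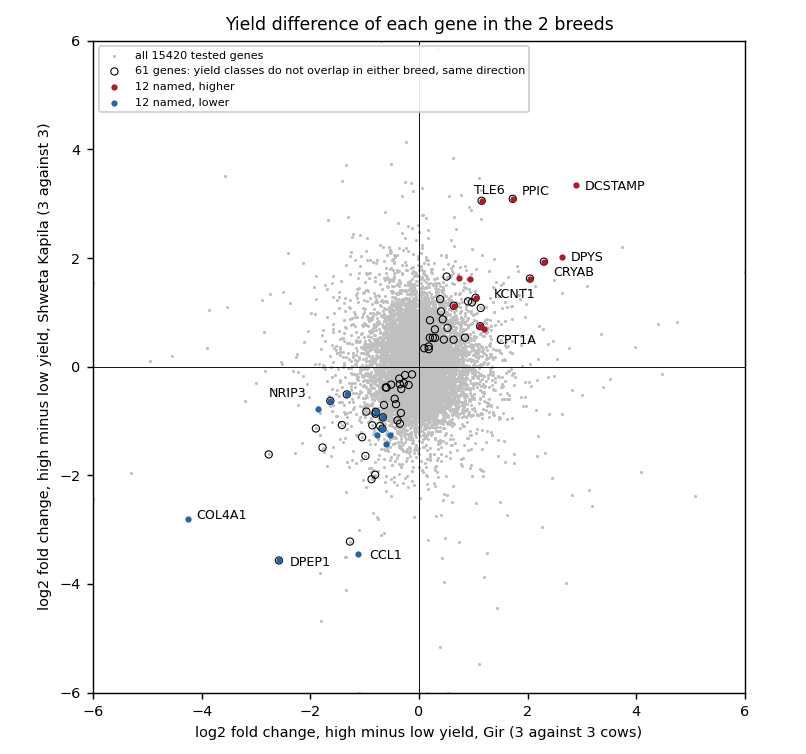
Each point is 1 of the 15420 tested genes, with its log2 fold change between high and low yield in Gir on the x axis and in Shweta Kapila on the y axis. Open circles mark the 61 genes whose yield classes do not overlap in either breed, filled circles the 12 named genes on each side, and genes beyond 6 in size are drawn at the edge. The grey cloud shows no slant, and DCSTAMP, PPIC and DPEP1 lie far out along the diagonal.

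For 61 genes (0.396%) all 3 high-yielding cows lay on the same side of all 3 low-yielding cows in each breed. Of these 26 (0.169%) were higher and 35 (0.227%) lower with high yield. Another 44 genes (0.285%) separated the classes in both breeds but in opposite directions. Within a breed, 1571 genes (10.2%) separated the classes in Gir and 1112 (7.21%) in Shweta Kapila. A difference of the same sign and of at least 0.5 log2 units in each breed was found for 627 genes (4.07%), 312 higher (2.02%) and 315 lower (2.04%), and 374 of them carry a gene symbol. The 12 with the lowest p on each side are described first. None of the 24 passed edgeR's test (adjusted p = 0.874 for each), so the values below describe these 12 cows. All 24 kept their sign in each breed when any 1 cow was left out. They were picked from these same cows for a shared sign, size and low p, so this is no separate support. Where a pair of log2 fold changes follows a gene, the first is of Gir and the second of Shweta Kapila, and the median of a gene list is that of its log2 fold changes over both breeds unless a breed is named. The median standard error (SE) of a log2 fold change over all genes was 0.27 for both breeds together and 0.39 within a breed.

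On the higher side, PPIC had the lowest p. PPIC (identifier 109561856) encodes cyclophilin C, a peptidyl-prolyl isomerase that helps proteins fold. It stood at 1.34, 1.41 and 0.619 CPM in high-yielding and 0.407, 0.367 and 0.239 CPM in low-yielding Gir cows, and at 1.77, 0.693 and 1.08 CPM in high-yielding and 0.0889, 0.0920 and 0.228 CPM in low-yielding Shweta Kapila cows. Every high-yielding cow lay above every low-yielding cow of its breed, and here also above those of the other breed. The log2 fold change was 2.35 ± 0.46 (SE), with 1.72 in Gir and 3.09 in Shweta Kapila. PPIC is a rare transcript in these samples, and low-yielding Shweta Kapila cows held only a few counts of it. With each cow left out in turn the log2 fold change stayed between 2.13 and 2.56. The small heat shock protein CRYAB (alpha-B crystallin), which keeps unfolded proteins from clumping, stood at 1.28, 0.543 and 1.86 CPM in high-yielding and 0, 0.420 and 0.287 CPM in low-yielding Gir cows, and at 0.253, 0.480 and 0.598 CPM in high-yielding and 0.133, 0.0920 and 0.114 CPM in low-yielding Shweta Kapila cows. A value of 0 allows up to 3 counts, which equal 0.112 to 0.204 CPM by library and cover counting error only. CRYAB differed by a log2 fold change of 2.14 ± 0.57 (2.30 in Gir and 1.93 in Shweta Kapila), with no overlap in either breed.

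KCNT1 and CACNA1H encode ion channels. KCNT1 (identifier 109566579), a potassium channel that sodium opens, stood at 14.5, 25.6 and 18.4 CPM in high-yielding and 7.47, 12.0 and 9.03 CPM in low-yielding Gir cows, and at 12.3, 10.4 and 8.70 CPM in high-yielding and 2.71, 4.55 and 5.77 CPM in low-yielding Shweta Kapila cows. The classes did not overlap in either breed, and the log2 fold changes were close in size, 1.04 in Gir and 1.27 in Shweta Kapila (1.15 ± 0.23 together). CACNA1H, the pore of a T-type calcium channel, stood at 5.17, 4.46 and 3.46 CPM in high-yielding and 2.85, 1.89 and 2.05 CPM in low-yielding Gir cows, and at 5.19, 8.75 and 3.25 CPM in high-yielding and 1.25, 1.01 and 3.37 CPM in low-yielding Shweta Kapila cows. All 3 high-yielding Gir cows lay above the low-yielding ones, while in Shweta Kapila high 3 lay just under low 3, and the log2 fold change was 1.28 ± 0.35. HOMER3, a scaffold that ties receptors to calcium release channels, was at 16.1, 15.7 and 19.1 CPM in high-yielding and 14, 9.65 and 9.12 CPM in low-yielding Gir cows, and at 21.9, 10.5 and 13.9 CPM in high-yielding and 6.58, 7.45 and 7.19 CPM in low-yielding Shweta Kapila cows. It separated the classes in each breed, by 0.64 and 1.12 log2 units.

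DCSTAMP showed the largest log2 fold change of the 12 higher genes. It encodes a membrane protein needed for the fusion of macrophage-lineage cells into osteoclasts and giant cells, and stood at 56.5, 11.0 and 57.4 CPM in high-yielding and 7.06, 3.73 and 6.07 CPM in low-yielding Gir cows, and at 70.6, 15.3 and 2.17 CPM in high-yielding and 2.67, 2.16 and 3.82 CPM in low-yielding Shweta Kapila cows. All 3 high-yielding Gir cows lay above the low-yielding ones, but Shweta Kapila high 3 lay among the low-yielding cows, and the high-yielding cows of that breed ran from 2.17 to 70.6 CPM. The log2 fold change was 3.11 ± 0.66, and 2.35 without Shweta Kapila high 1, which had the highest value. Of the other osteoclast and fusion genes, OSCAR, an activating receptor of the lineage, was at log2 fold changes of 0.89 in Gir and 0.76 in Shweta Kapila, with overlap between the classes in each breed, and a sign that was no longer shared without Shweta Kapila high 1. Of 16 tested members of that list, 10 were higher and 2 lower in both breeds (62.5% and 12.5%, against 24.8% and 29.1% of all genes), with a median of 0.32. Without Shweta Kapila high 1 the count of 10 became 5.

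AREG, the epidermal growth factor receptor ligand amphiregulin, stood at 2.03, 0.924 and 0.413 CPM in high-yielding and 0.136, 0.315 and 0.334 CPM in low-yielding Gir cows, and at 1.77, 1.12 and 0.672 CPM in high-yielding and 0.445, 0.184 and 0.514 CPM in low-yielding Shweta Kapila cows. Its classes did not overlap in either breed, with a log2 fold change of 1.82 ± 0.48. This value rests on few counts, and Gir high 3 stood at 0.413 CPM against 0.334 CPM in Gir low 3. A level of 3 counts equals 0.155 and 0.143 CPM in those cows. ARHGAP22, which switches off the small GTPase Rac, was also free of overlap, at log2 fold changes of 1.12 in Gir and 0.74 in Shweta Kapila. TLE6, a member of the Groucho family of corepressors, stood at 1.16, 0.924 and 1.19 CPM in high-yielding and 0.204, 0.420 and 0.812 CPM in low-yielding Gir cows, and at 1.08, 0.960 and 0.560 CPM in high-yielding and 0.0889, 0.0920 and 0.114 CPM in low-yielding Shweta Kapila cows. The classes were apart in each breed, and all 3 low-yielding Shweta Kapila cows lay under the level of 3 counts. SAXO1, a protein of microtubules in cilia, was at log2 fold changes of 0.74 in Gir, where 1 high-yielding cow lay among the low-yielding ones, and at 1.63 in Shweta Kapila. DPYS, the dihydropyrimidinase of pyrimidine breakdown, was at log2 fold changes of 2.63 and 2.02, and Shweta Kapila high 3 lay among the low-yielding cows. CPT1A, the enzyme of fatty acid entry into mitochondria, is described with its pathway below.

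**Figure D2:**
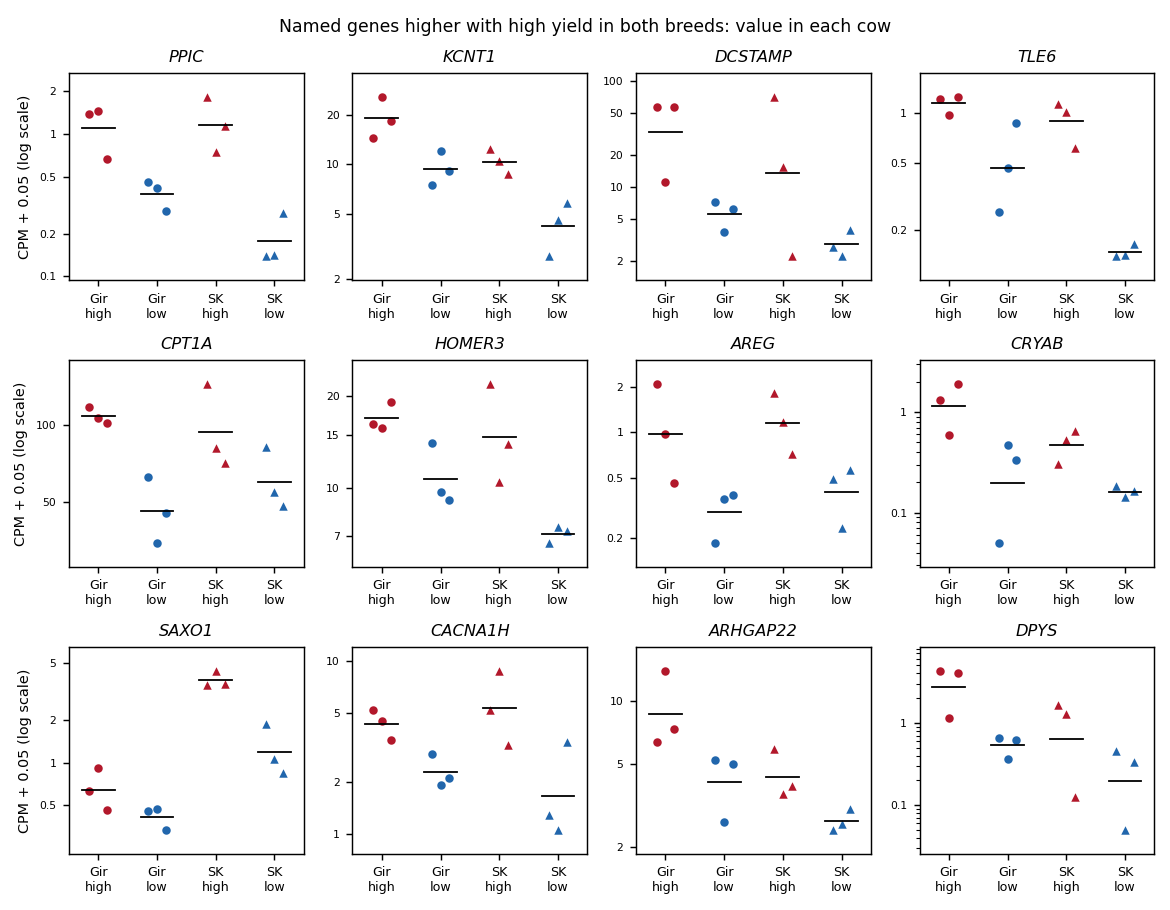
CPM + 0.05 on a log axis for the 12 named genes that were higher with high yield, with 1 point per cow (red for high, blue for low yield, circles for Gir, triangles for Shweta Kapila, abbreviated SK) and a bar at the geometric mean of 3 cows. PPIC, KCNT1, TLE6, HOMER3, AREG, CRYAB and ARHGAP22 show no overlap between red and blue in either breed, whereas for DCSTAMP, CPT1A, CACNA1H and DPYS at least 1 red Shweta Kapila triangle lies among the blue ones.

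Among the 12 lower genes, CD24, a glycoprotein on the surface of B cells and granulocytes, stood at 9.58, 8.69 and 8.16 CPM in high-yielding and 36.0, 12.7 and 17.8 CPM in low-yielding Gir cows, and at 19.4, 12.4 and 15.9 CPM in high-yielding and 19.9, 23.0 and 25.1 CPM in low-yielding Shweta Kapila cows. The classes did not overlap in either breed, and the log2 fold change was −1.33 in Gir and −0.51 in Shweta Kapila. Without Gir low 1, which had the highest value, the log2 fold change of both breeds moved from −0.92 to −0.64. DPEP1, a membrane dipeptidase, stood at 0, 0.326 and 0 CPM in high-yielding and 0.747, 0.735 and 0.573 CPM in low-yielding Gir cows, and at 0.0633, 0 and 0.0373 CPM in high-yielding and 0.178, 0.0920 and 1.14 CPM in low-yielding Shweta Kapila cows. It separated the classes in each breed, but 2 of the 3 high-yielding Gir cows and 1 Shweta Kapila cow had 0 CPM, so the log2 fold change (−2.97 ± 0.88) rests on few counts. GALNT5, an enzyme that starts O-linked sugar chains, was apart in each breed at log2 fold changes of −0.80 and −0.83.

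COL4A1, a collagen of basement membranes, had the largest log2 fold change of the 12 lower genes (−3.44 ± 0.97). It stood at 0.116, 0 and 0.155 CPM in high-yielding and 0.0679, 4.98 and 0.478 CPM in low-yielding Gir cows, and at 0.0633, 0 and 0.448 CPM in high-yielding and 2.27, 1.2 and 0.571 CPM in low-yielding Shweta Kapila cows. Its highest values were in Gir low 2 and Shweta Kapila low 1 and low 2, and the classes overlapped in Gir. Blood cells are not the usual source of this collagen, and markers of vessel wall and epithelial cells were examined beside it. Over the 8 tested genes of 18 in that marker list, the mean log2 CPM was 2.74 in Gir low 2, 2.41 in Shweta Kapila low 1 and 2.87 in Shweta Kapila low 2. The other 9 cows ran from 1.44 to 2.15. In Gir low 2, smooth muscle actin ACTA2 was at 71.6 CPM (3.37 to 15.5 in the other 11 cows) and VWF, of endothelium and platelets, at 113 CPM (9.98 to 52.5 in the other 11 cows). In Shweta Kapila low 1, by contrast, VWF was at 11.2 CPM, the lowest of its breed, and ACTA2 at 12.5 CPM. Of the 8 markers 4 were lower in both breeds and 4 had opposite signs. Their part in the difference was not tested. Without Gir low 2 the log2 fold change of COL4A1 was −2.38.

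NRIP3, a nuclear receptor interacting protein, stood at 2.56, 3.21 and 5.83 CPM in high-yielding and 7.81, 16 and 12.3 CPM in low-yielding Gir cows, and at 9.87, 8.59 and 6.24 CPM in high-yielding and 10.7, 16.4 and 11.1 CPM in low-yielding Shweta Kapila cows. All high-yielding cows lay below all low-yielding cows of their breed, with log2 fold changes of −1.63 in Gir and −0.63 in Shweta Kapila. TRIB2, a pseudokinase that steers the breakdown of transcription factors, stood at 48.1, 55.1 and 60.7 CPM in high-yielding and 85.5, 73.1 and 101 CPM in low-yielding Gir cows, and at 26.0, 37.0 and 37.0 CPM in high-yielding and 38.3, 46.0 and 107 CPM in low-yielding Shweta Kapila cows. The classes were apart in each breed, narrowly in Shweta Kapila, where low 3 stood far above the others, and without that cow the log2 fold change went from −0.80 to −0.52. FZD5, a Wnt receptor, was at log2 fold changes of −0.78 in Gir and −1.26 in Shweta Kapila. The chemokine CCL1 was at log2 fold changes of −1.12 and −3.45, with values under 4 CPM in every cow. Among chromatin and transcription genes, SMARCA1, a motor of nucleosome spacing, was at log2 fold changes of −1.85 and −0.77. PROX1, a homeobox factor of lymphatic endothelium, was at log2 fold changes of −0.53 and −1.25, and the corepressor RUNX1T1 at −0.61 and −1.42. The classes overlapped in Gir for FZD5, CCL1, PROX1 and RUNX1T1, and in Shweta Kapila for SMARCA1. For PROX1, Gir low 3 stood at 31.3 CPM, while Gir low 1 and low 2, at 13.9 CPM each, lay among the high-yielding cows. The PROX1 difference in Gir therefore rests mainly on low 3. Without that cow its log2 fold change over both breeds went from −0.89 to −0.72. LRRC10, a leucine-rich repeat protein known from heart muscle, was at log2 fold changes of −0.67 and −1.14, with no overlap in either breed.

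**Figure D3:**
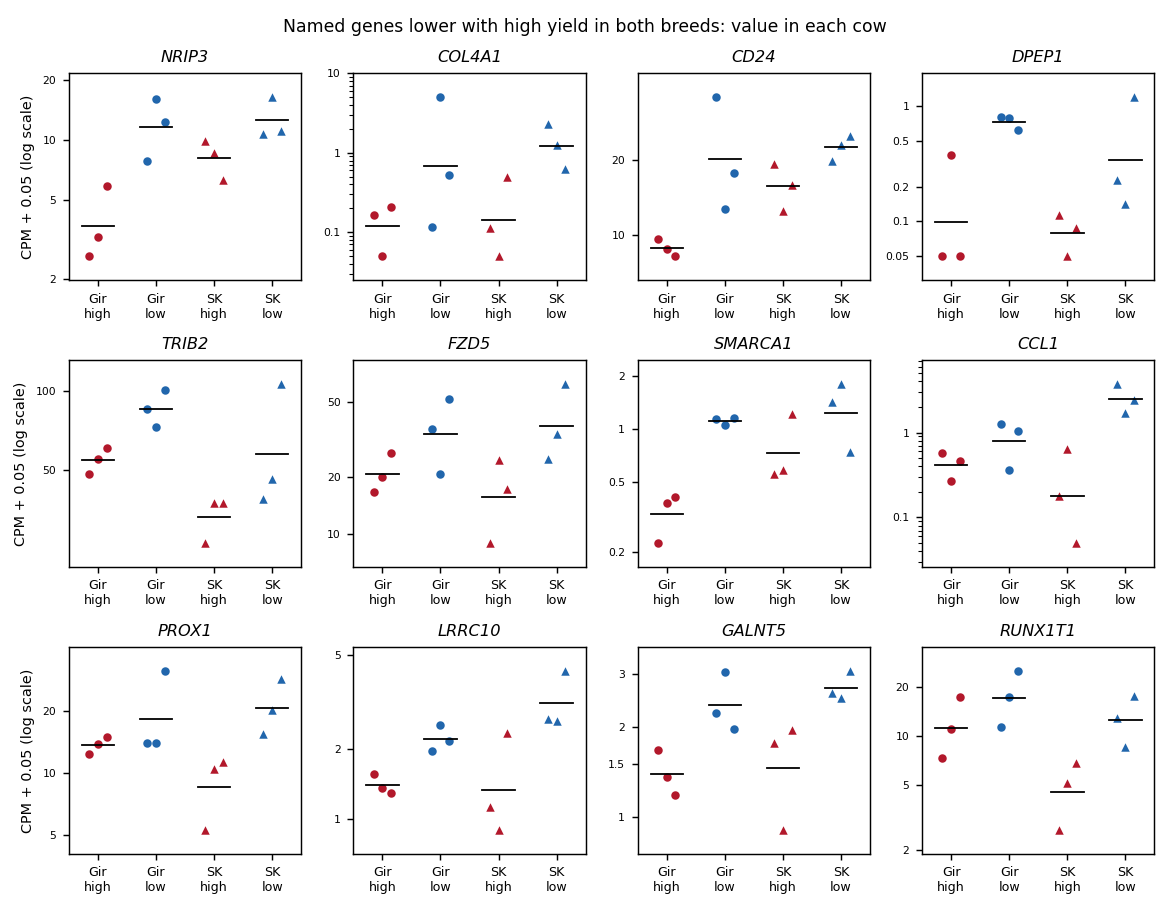
CPM + 0.05 on a log axis for the 12 named genes that were lower with high yield, with 1 point per cow (red for high, blue for low yield, circles for Gir, triangles for Shweta Kapila, abbreviated SK) and a bar at the geometric mean of 3 cows. NRIP3, CD24, DPEP1, TRIB2, LRRC10 and GALNT5 show no overlap in either breed, and points at 0.05 are cows with 0 counts.

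Other genes were free of overlap in both breeds as well, and the following were chosen after their values were seen. IL10RA, the receptor chain that binds interleukin 10, stood at 275, 262 and 372 CPM in high-yielding and 229, 177 and 179 CPM in low-yielding Gir cows, and at 248, 182 and 199 CPM in high-yielding and 146, 160.0 and 140.0 CPM in low-yielding Shweta Kapila cows. It was higher in each high-yielding cow than in each low-yielding cow of its breed, at log2 fold changes of 0.64 in Gir and 0.50 in Shweta Kapila (0.57 ± 0.15 together), and fell outside the 12 because its Shweta Kapila value was just under 0.5. SLC29A3, a nucleoside transporter of lysosomes, was at log2 fold changes of 0.29 and 0.69, PIGH, which starts the sugar anchor of many surface proteins, at 0.40 and 1.02, and MRPL33, a small mitochondrial ribosomal protein, at 0.97 and 1.18. QARS1, the glutaminyl-tRNA synthetase, differed by log2 fold changes of only 0.18 and 0.32. On the lower side PTCH1, the hedgehog receptor, was at log2 fold changes of −0.97 and −0.83, LGR4, a receptor for R-spondins, at −0.60 and −0.39, and ADRB1, the beta-1 adrenergic receptor, at −0.45 and −0.59. MAP4, which binds microtubules, was at log2 fold changes of −0.35 and −0.32.

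Fatty acid oxidation as a whole did not move in one direction. Of 35 tested members 11 were higher and 10 lower in both breeds (31.4% and 28.6%), with a median of 0.01. The higher members of lowest p were both steps of the carnitine shuttle, which brings long-chain fatty acids into mitochondria. CPT1A (identifier 109554147) stood at 117, 107 and 102 CPM in high-yielding and 62.6, 34.3 and 45.0 CPM in low-yielding Gir cows, and at 145, 80.9 and 70.7 CPM in high-yielding and 81.8, 54.6 and 47.8 CPM in low-yielding Shweta Kapila cows. In Gir every high-yielding cow lay above every low-yielding one, while in Shweta Kapila the cows high 2 and high 3 lay under low 1, and the log2 fold changes were 1.2 and 0.69. SLC25A20, the carrier that takes acylcarnitine across the inner membrane, stood at 32.2, 37.6 and 28.8 CPM in high-yielding and 27.7, 16.8 and 21.2 CPM in low-yielding Gir cows, and at 56.1, 29.2 and 14.6 CPM in high-yielding and 10.8, 10.6 and 27.3 CPM in low-yielding Shweta Kapila cows. It was at log2 fold changes of 0.59 and 1.03, with no overlap in Gir, while in Shweta Kapila high 3 lay under low 3. With the share of counts on 37 unnamed short identifiers as a covariate its log2 fold change over both breeds was 0.45, against 0.81 without. PDK4, the kinase that turns cells from glucose to fat as fuel, had opposite signs (log2 fold changes 2.38 and −0.19), and was chosen after its values were seen. The lipid droplet protein PLIN2 was lower in both breeds (log2 fold changes −0.22 and −0.68).

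Genes of fatty acid, triglyceride and phospholipid synthesis were higher in both breeds for 11 and lower for 4 of 26 tested (42.3% and 15.4%), with a median of 0.12. Without Shweta Kapila low 1 the count of 11 became 7, as it did without the 3 largest libraries. FADS2, the delta-6 desaturase that makes polyunsaturated fatty acids, was lower (−1.25 ± 0.57; −0.41 in Gir and −2.18 in Shweta Kapila), with a log2 fold change of −0.61 without Shweta Kapila low 3. PLIN3, a coat protein of lipid droplets, was at log2 fold changes of 0.80 and 0.14. XDH, xanthine dehydrogenase, which also helps package milk fat in the udder, was at log2 fold changes of 1.14 in Gir and at 0.02 in Shweta Kapila. The shared sign was lost for PLIN3 without Shweta Kapila high 1 or low 1, for XDH without high 3 or low 3 of that breed, and for both without the 3 largest libraries.

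Among cholesterol genes, 10 of 27 were higher and 4 lower in both breeds (37.0% and 14.8%), with a median of 0.10. MVK, mevalonate kinase of sterol synthesis, was at log2 fold changes of 0.37 and 1.19, and its value over both breeds of 0.78 was 0.52 without the 3 largest libraries and 0.40 with the covariate. NR1H3, the liver X receptor alpha that senses oxysterols, was at log2 fold changes of 0.80 and 0.31. The 4 lower members included known targets of that receptor, chosen here after their values were seen. MYLIP, a ubiquitin ligase, was at log2 fold changes of −0.22 and −0.52, and the cholesterol exporters ABCG1 and ABCA1 were at −0.54 and −0.57 and at −0.35 and −0.50. Over both breeds ABCA1 went from −0.43 to −0.11 without the 3 largest libraries or with the covariate and to −0.25 without Shweta Kapila low 1 or high 1. ABCG1 went from −0.55 to −0.28 without Shweta Kapila low 3, where its sign was no longer shared, and NR1H3 lost the shared sign without Shweta Kapila high 1.

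Glycolysis and lactate genes leaned to the higher side, with 14 of 22 higher and 3 lower in both breeds (63.6% and 13.6%), but with a small median of 0.14. PFKFB4, which makes the activator of phosphofructokinase, stood at 88.2, 133 and 150.3 CPM in high-yielding and 88.4, 62.8 and 88.0 CPM in low-yielding Gir cows, and at 121, 49.1 and 52.1 CPM in high-yielding and 45.4, 40.2 and 55.4 CPM in low-yielding Shweta Kapila cows. In Gir low 1 lay just above high 1 and in Shweta Kapila high 2 and high 3 lay under low 3. The log2 fold change was 0.63 in Gir and 0.66 in Shweta Kapila. ALDOC, an aldolase, was at log2 fold changes of 0.44 and 0.58, PGAM1, phosphoglycerate mutase, at 0.32 and 0.20, and GAPDH, chosen after its value was seen, at 0.20 and 0.38. The hexokinase HK2, also chosen so, was on the other side at log2 fold changes of −0.71 and −0.13. Without Shweta Kapila high 1 the count of 14 became 5 and the median 0.01, and PGAM1, GAPDH and HK2 no longer shared a sign, so the lean to the higher side rests on that cow.

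Of 27 genes of growth hormone, prolactin and insulin signalling, 7 were higher and 8 lower in both breeds (25.9% and 29.6%), with a median of −0.06 (7 against 8 became 4 against 8 without Shweta Kapila low 1 and 8 against 4 without the 3 largest libraries). PRLR, the prolactin receptor, stood at 12.0, 11.6 and 11.8 CPM in high-yielding and 13.4, 12.3 and 13.1 CPM in low-yielding Gir cows, and at 9.56, 7.89 and 11.1 CPM in high-yielding and 10.1, 12.9 and 21.5 CPM in low-yielding Shweta Kapila cows. Low-yielding Gir cows lay above high-yielding ones by a small margin, and in Shweta Kapila the classes overlapped (log2 fold changes −0.13 and −0.64). SOCS2, a brake on growth hormone signalling, was at log2 fold changes of −0.43 and −1.04, with overlap in each breed, and FOXO1, a transcription factor that insulin holds out of the nucleus, at −0.31 and −0.28. Over both breeds SOCS2 went from −0.73 to −0.20 and FOXO1 from −0.29 to −0.12 without the 3 largest libraries, where neither shared a sign. PRLR went from −0.39 to −0.20 without Shweta Kapila low 3, and SOCS2 lost the shared sign without Gir low 1. Of genes chosen after their values were seen, IGF1 was at log2 fold changes of −0.38 and −0.29 and the insulin receptor INSR at 0.24 and 0.14 (sign not shared without Shweta Kapila low 1). Of 14 tested candidate genes for milk traits 4 were higher and 3 lower in both breeds (28.6% and 21.4%). Of 17 glucocorticoid response genes 5 were higher and 1 was lower (29.4% and 5.88%), among the higher CXCR4, a chemokine receptor, at log2 fold changes of 0.60 and 0.17; the count of 5 was 3 without Gir low 3 and 2 without Shweta Kapila high 1, where CXCR4 no longer shared a sign.

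Calcium handling and vitamin D genes leaned to the lower side, with 9 of 20 lower and 1 higher in both breeds (45.0% and 5.00%) and a median of −0.12. The count of 9 stayed between 7 and 11 with each cow left out, and was 9 without the 3 largest libraries. ITPR1, a channel that releases calcium from the endoplasmic reticulum, stood at 29.2, 39.5 and 44.4 CPM in high-yielding and 41.8, 37.7 and 59.2 CPM in low-yielding Gir cows, and at 22.5, 36.5 and 32.8 CPM in high-yielding and 41.8, 51.0 and 52.7 CPM in low-yielding Shweta Kapila cows. In Shweta Kapila every high-yielding cow lay below every low-yielding one, and in Gir the classes overlapped (log2 fold changes −0.30 and −0.66). STIM2, the calcium sensor of that store, chosen after its value was seen, was at log2 fold changes of −0.22 and −0.60. CYP24A1, the enzyme that inactivates vitamin D, was at log2 fold changes of −0.88 and −0.32, and stood at 2.56, 0.924 and 1.19 CPM in high-yielding and 2.92, 3.10 and 2.58 CPM in low-yielding Gir cows, and at 1.65, 1.81 and 2.35 CPM in high-yielding and 2.45, 2.21 and 2.63 CPM in low-yielding Shweta Kapila cows. All high-yielding Gir cows lay below the low-yielding ones, while the highest of the Shweta Kapila high-yielding cows lay within the range of the low-yielding ones. RXRA, the retinoid X receptor that pairs with the vitamin D receptor, was the member higher in both breeds, at log2 fold changes of 0.72 and 0.58.

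**Figure D4:**
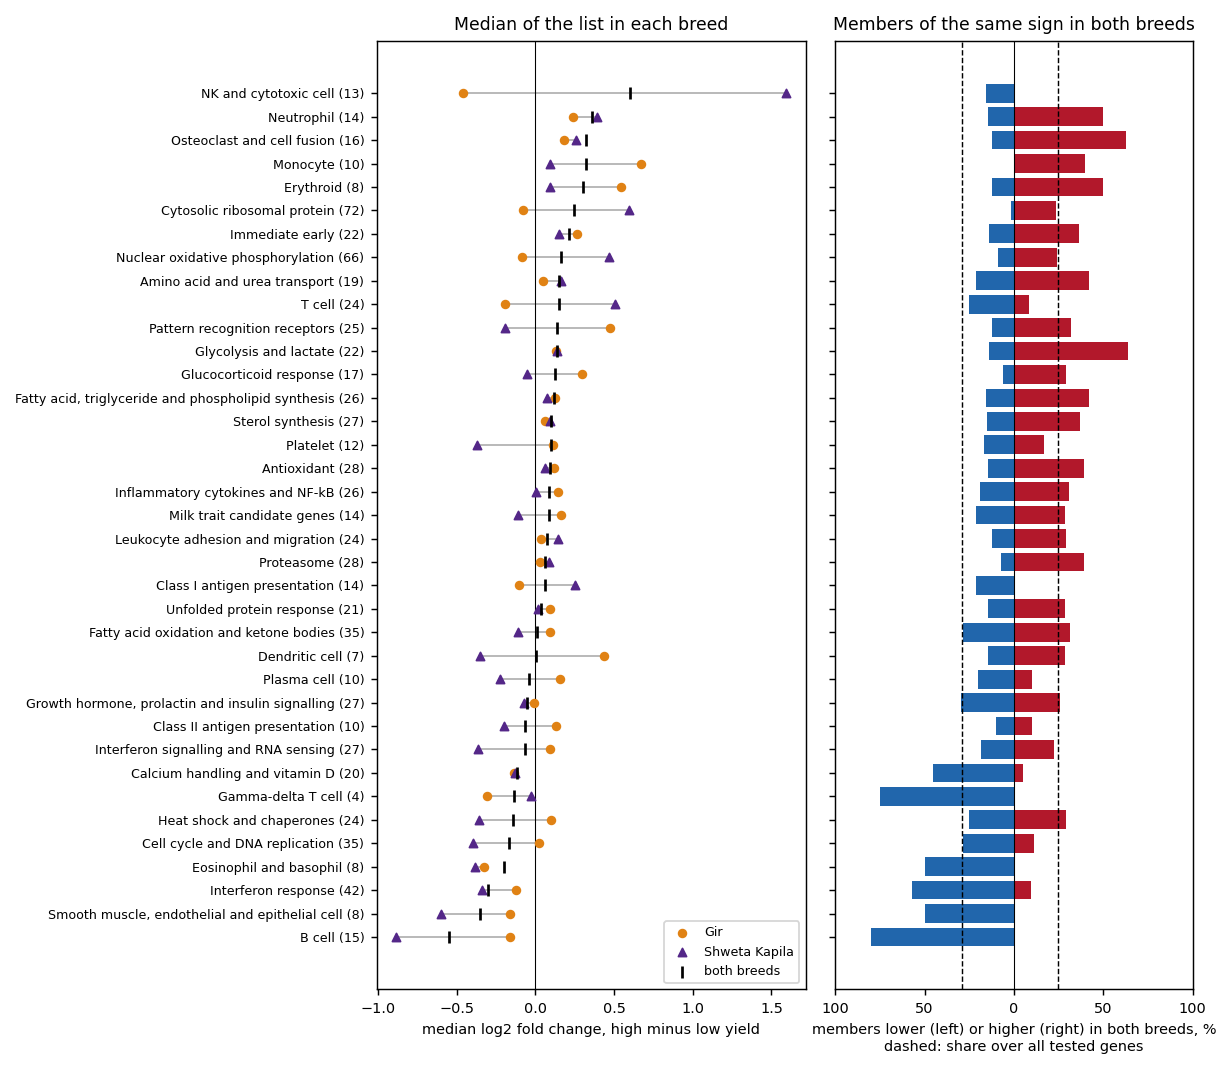
Left, the median log2 fold change of each of 37 gene lists in Gir (orange circles), Shweta Kapila (purple triangles) and both breeds (black bars), with the number of tested members in brackets. Right, the percentage of members lower (blue) or higher (red) in both breeds, with dashed lines at 29.1% and 24.8%, the shares over all tested genes. B cell and interferon response genes reach furthest past the lower line among the lists of over 8 genes, glycolysis and osteoclast genes past the higher one, and the NK and T cell medians of the breeds lie on opposite sides of 0.

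Cell type markers differed in how far the breeds shared a sign. B cell markers were lower in both breeds for 12 of 15 tested genes (80.0%) and higher for 0, with a median of −0.16 in Gir and −0.88 in Shweta Kapila. EBF1, a transcription factor that sets B cell fate, stood at 23.8, 43.0 and 32.6 CPM in high-yielding and 32.8, 33.8 and 71.5 CPM in low-yielding Gir cows, and at 16.7, 21.1 and 17.3 CPM in high-yielding and 21.7, 33.8 and 56.5 CPM in low-yielding Shweta Kapila cows. Low 3 was the highest cow in each breed and the classes overlapped in Gir but not in Shweta Kapila, with a log2 fold change of −0.75 ± 0.28. PAX5, which holds B cells to their fate, was at log2 fold changes of −0.45 and −1.30, and RALGPS2, a guanine exchange factor found in B cells, at −0.40 and −0.73. The mean log2 CPM of the list was 6.35 to 6.88 in high-yielding and 6.50 to 7.33 in low-yielding Gir cows, and 5.93 to 6.14 against 5.90 to 7.56 in Shweta Kapila. Leaving out Gir low 3, Gir high 1 or Shweta Kapila low 3 took the count of 12 to 3, 6 or 7, and RALGPS2 did not share a sign without Gir low 3.

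Of 24 T cell markers 16 had opposite signs in the breeds, 2 were higher and 6 lower (8.33% and 25%), with a median of −0.19 in Gir and 0.51 in Shweta Kapila. Without Gir low 2 the T cell counts were 8 higher and 5 lower, so that fewer than 16 stayed opposite, and without Shweta Kapila low 1 they were 2 and 2. Of 13 NK and cytotoxic markers 11 were opposite, 0 higher and 2 lower, with medians of −0.46 and 1.59, and up to 3 were higher with a cow left out (3 without Gir low 2, 2 without Gir high 3 or Gir low 1). No gene passed the test of the difference between the breeds in edgeR (0 of 15420, 0%; 587 or 3.81% at an unadjusted p under 0.05), where DESeq2 called 9 and limma-voom with sample weights 1308. The T cell marker of lowest p among those of shared sign was CD6, a co-receptor on the T cell surface, at log2 fold changes of 0.09 and 1.17, whose sign was not shared without Gir high 1 or Gir low 3. Next were the transcription factors LEF1 at log2 fold changes of −0.17 and −0.42 and TCF7 at −0.31 and −0.20. EOMES, a transcription factor of cytotoxic cells, stood at 26.2, 22 and 17.2 CPM in high-yielding and 32.6, 35.6 and 23.2 CPM in low-yielding Gir cows, and at 26.5, 22 and 17.7 CPM in high-yielding and 32.1, 28.1 and 25 CPM in low-yielding Shweta Kapila cows. In each breed low 3 was the low-yielding cow that lay under the highest high-yielding one, and the log2 fold change was −0.42 ± 0.18.

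Neutrophil and monocyte markers leaned to the higher side, the monocyte markers mainly in Gir. Of 14 neutrophil markers 7 were higher and 2 lower in both breeds (50% and 14.3%) and 5 had opposite signs, with a median of 0.36. Of 10 monocyte markers 4 were higher and 0 lower (40%) and 6 had opposite signs, with a median of 0.67 in Gir and 0.09 in Shweta Kapila. S100A9 stood at 1046, 1183 and 992 CPM in high-yielding and 694, 631 and 609 CPM in low-yielding Gir cows, and at 1432, 350.1 and 499.8 CPM in high-yielding and 586, 462 and 467 CPM in low-yielding Shweta Kapila cows. In Gir the classes were apart, and in Shweta Kapila high 1 stood far above the other cows of the breed while high 2 was the lowest, at log2 fold changes of 0.74 and 0.59. S100A8, its partner, was at log2 fold changes of 0.43 and 0.79, and CSF3R at 0.49 and 0.53. Among monocyte genes, CSF1R, the receptor for macrophage colony-stimulating factor, was at log2 fold changes of 0.77 and 0.21, and CLEC4E, a receptor for mycobacterial lipids, at 0.65 and 0.29. CD14, the co-receptor for lipopolysaccharide, chosen after its value was seen, was at log2 fold changes of 0.91 and −0.11. Without Shweta Kapila high 1 the neutrophil count of 7 became 2 and its median 0.02, and the monocyte count of 4 became 2, as it also did without Shweta Kapila high 3, with monocyte medians of 0.33 and 0.28. S100A9, CSF3R and CSF1R did not share a sign without Shweta Kapila high 1, nor CLEC4E without Shweta Kapila high 3. Of 7 tested dendritic cell genes 4 had opposite signs, 2 were higher and 1 was lower (28.6% and 14.3%), with medians of 0.43 in Gir and −0.35 in Shweta Kapila. The dendritic cell genes BATF3 and XCR1, of the cross-presenting subset, were at log2 fold changes of 1.17 and 0.36 and at 0.84 and 0.40, while TCF4, of plasmacytoid dendritic and B cells, was at −0.33 and −1.33 (sign not shared without Gir low 3).

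**Figure D5:**
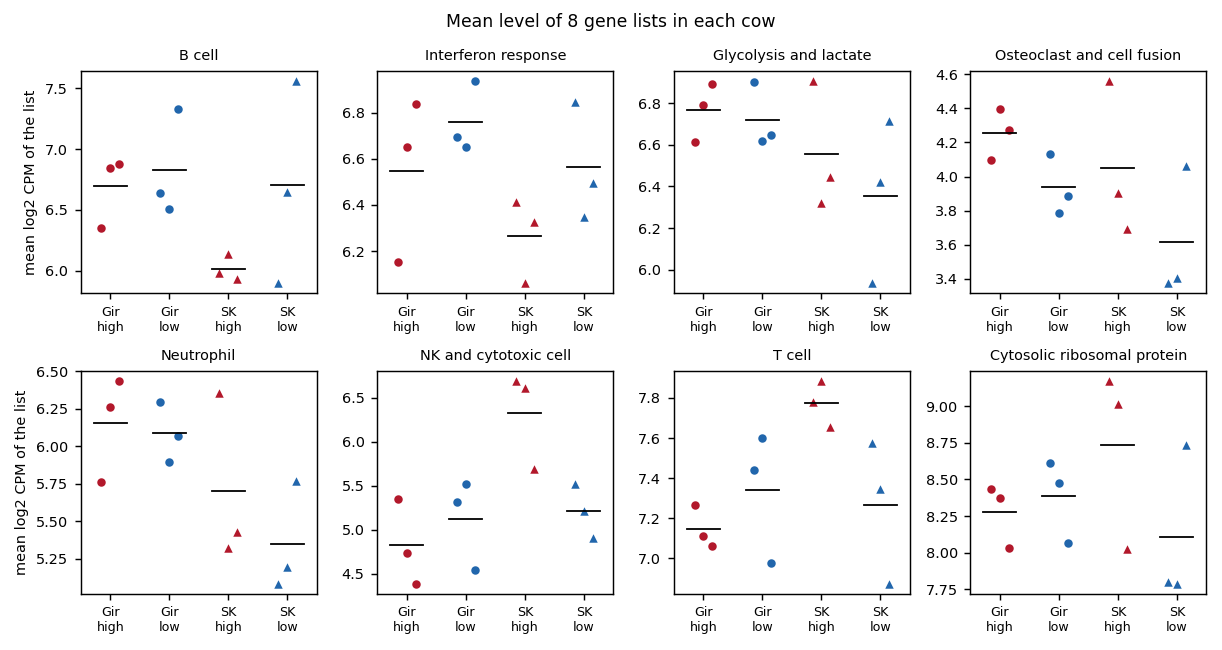
Mean log2 CPM of 8 gene lists in each cow (red for high, blue for low yield, circles for Gir, triangles for Shweta Kapila, abbreviated SK), with a bar at the mean of 3 cows. The B cell panel shows 1 high blue point in each breed (7.33 and 7.56), the neutrophil and osteoclast panels 1 high red triangle, and the NK panel red triangles above the blue ones in Shweta Kapila but not red circles above blue ones in Gir.

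Interferon response genes were lower in both breeds for 24 and higher for 4 of 42 tested (57.1% and 9.52%), with a median of −0.13 in Gir and −0.34 in Shweta Kapila. OAS2, which makes the messenger that turns on RNA breakdown in infected cells, stood at 4.36, 15.9 and 33.2 CPM in high-yielding and 53.5, 31.6 and 38.7 CPM in low-yielding Gir cows, and at 6.33, 4.05 and 9.93 CPM in high-yielding and 14.6, 8.37 and 36.9 CPM in low-yielding Shweta Kapila cows. Gir high 3 lay among the low-yielding cows, and so did Shweta Kapila high 3 (log2 fold change −1.38 ± 0.45). RSAD2, the antiviral viperin, was at log2 fold changes of −0.60 and −0.98, and MX1, an antiviral GTPase, at −0.54 and −1.01. RIGI, a sensor of viral RNA, and CMPK2, a mitochondrial nucleotide kinase, were chosen after their values were seen and stood at log2 fold changes of −0.24 and −0.77 and at −0.27 and −0.61. The count of 24 became 13 (against 3 higher) without Gir low 3 and 15 (against 9 higher) without Gir high 1, and the median moved from −0.30 to −0.12 without the 3 largest libraries. The genes that transmit or sense the signal were mixed, with 6 of 27 higher and 5 lower (22.2% and 18.5%; 3 higher without Shweta Kapila high 1), among the higher the kinase TYK2 at log2 fold changes of 0.33 and 0.20.

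Inflammatory and receptor genes were mixed as well. Of 26 inflammatory genes 8 were higher and 5 lower in both breeds (30.8% and 19.2%), among them IL1RN, the interleukin 1 antagonist, at log2 fold changes of 0.81 and 0.21 and the cytokine oncostatin M (OSM) at 0.85 and 0.81. Without Shweta Kapila high 1 the count of 8 became 3, and neither IL1RN nor OSM shared a sign. Of 25 pattern recognition genes 8 were higher and 3 lower (32.0% and 12.0%), and 13 were higher without Shweta Kapila low 1. TREM1, a receptor that amplifies inflammation, was at log2 fold changes of 0.80 and 0.34, and TLR10, a Toll-like receptor of B cells, at −0.66 and −0.59. Among 24 adhesion and migration genes (7 higher and 3 lower, 29.2% and 12.5%; 4 higher without Shweta Kapila high 1), S1PR1, the receptor by which lymphocytes leave lymph nodes, was at log2 fold changes of −0.32 and −0.19.

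Of 72 cytosolic ribosomal protein genes 54 were opposite, 17 higher and 1 lower (23.6% and 1.39%), with a median of −0.08 in Gir and 0.60 in Shweta Kapila. The count of 17 ran from 8 without Gir low 3 to 41 without Gir low 1, and was 34 without Gir high 3 and 28 without Gir low 2. Of 66 nuclear oxidative phosphorylation genes 44 were opposite and 16 higher (24.2%), with medians of −0.09 and 0.47, and the count of 16 was 8 without Gir low 3 and 38 without Gir low 1. Among the genes higher in both breeds CYC1, cytochrome c1, was at log2 fold changes of 0.16 and 0.94. Over both breeds the ribosomal median went from 0.25 to 0.04 without the 3 largest libraries. It was −0.04 with the share of counts on short identifiers as a covariate. The 3 largest libraries also held the highest shares, so these settings bear on the same cows and are not separate checks. The oxidative phosphorylation median went from 0.16 to 0.04 and to −0.05 in the same settings. Proteasome genes were higher for 11 and lower for 2 of 28 (39.3% and 7.14%), with 6 to 7 higher without Gir high 2, Gir low 3 or Shweta Kapila high 1. Of 24 heat shock genes 7 were higher and 6 lower (29.2% and 25%), close to the shares over all genes. The count of 6 was 2 without Gir low 3 and 9 without Gir low 1, and the median turned from −0.14 to 0.11 without the 3 largest libraries. HSPA12B, an atypical HSP70, stood at 43.2, 42.8 and 45.8 CPM in high-yielding and 39.2, 29.2 and 27.8 CPM in low-yielding Gir cows, and at 44.2, 27.3 and 28.9 CPM in high-yielding and 18.9, 25.2 and 26.9 CPM in low-yielding Shweta Kapila cows. CCT5, a subunit of the TRiC chaperonin, was lower at log2 fold changes of −0.19 and −0.34, and both genes were free of overlap in each breed.

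Antioxidant genes were higher for 11 and lower for 4 of 28 (39.3% and 14.3%), among them the glutathione peroxidases GPX3 at log2 fold changes of 0.51 and 0.80 and GPX1 at 0.50 and 0.41. Without Shweta Kapila high 1 the log2 fold change over both breeds went from 0.65 to 0.29 for GPX3 and from 0.45 to 0.21 for GPX1, which no longer shared a sign. Of 35 cell cycle genes 10 were lower and 4 higher (28.6% and 11.4%), but the count of 10 ran from 3 without Gir low 2 to 18 without Gir high 1, was 17 and 16 without Gir low 1 and low 3, and the median turned from −0.17 to 0.19 without the 3 largest libraries. Of 22 immediate early genes 8 were higher and 3 lower (36.4% and 13.6%; 5 higher without Shweta Kapila high 1), with FOSL2, a subunit of the AP-1 factor, at log2 fold changes of 0.37 and 0.95 and the phosphatase DUSP2 at 0.44 and 1.10, while MYC was lower at −0.07 and −0.80 (sign not shared without Gir high 1). Of 19 transporters of amino acids and urea 8 were higher and 4 lower (42.1% and 21.1%; 4 higher without the 3 largest libraries). SLC36A1, a lysosomal amino acid exporter, stood at 81.5, 79.1 and 78.4 CPM in high-yielding and 66.0, 58.5 and 53.2 CPM in low-yielding Gir cows, and at 56.3, 61.6 and 65.5 CPM in high-yielding and 52.6, 60.4 and 51.2 CPM in low-yielding Shweta Kapila cows, and SLC7A1, an importer of arginine and lysine, was at log2 fold changes of −0.23 and −0.78. The SLC36A1 classes were apart in Gir and overlapped in Shweta Kapila (log2 fold changes 0.43 and 0.16).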

How the data were processed

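RNA from the blood of 12 cows was sequenced with 1 library per cow, after ribosomal RNA removal and with strand kept, per the labels' protocols. The authors deposited a table of estimated counts per gene (56.96% of values were not whole within 1e-06). Reads were checked with FastQC and trimmed with Trimmomatic, per the submitters' processing notes, and which aligner, counter and genome build followed was not given in the sources used here. An antisense gene or a near-identical copy may therefore share reads with a named gene.

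The expected counts were rounded, filtered by edgeR's filterByExpr over the 4 groups (minimum count 10, minimum total 15) and scaled by TMM. Of 26229 identifiers 15420 were tested. A RefSeq gene table of the assembly NIAB-ARS_B.indTharparkar_mat_pri_1.0 named 86.8% of identifiers and served for names only. The 37 short identifiers it did not name stayed in the counts (4.54% to 13.1% of a library). High and low yield were compared with edgeR 4.0.16 (quasi-likelihood, robust) on breed and yield, with Benjamini-Hochberg adjustment at 0.05. Differences within a breed and between breeds came from a fit of 4 group means. CPM values are TMM-scaled, are not scaled by gene length and are not comparable between genes. The fit was checked on simulated counts that held yield differences but no breed difference. That check does not cover breed differences or the spread of cows along the first principal component. DESeq2 1.42.0 and limma 3.58.1 in R 4.3.3 were alternatives, and figures were drawn with matplotlib 3.10.9 in Python 3.11.15.

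Named were the 12 genes per side of lowest p that had a symbol, the same sign and at least 0.5 log2 units in each breed, and in each of 37 gene lists the 3 of lowest p with the same sign. The members and lists were chosen with earlier results of these data known. Lists are described by counts and medians without a test. Cows are separate animals, so a p-value measures the spread between cows. Counting intervals and floors cover counting error only. Some genes are not reported here.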

Additional observations from a re-analysis of the deposited data

Results flagged for a closer look

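In 13 of 250 sets, 1 cow stood apart from the other 5 of its yield class by a gap past the Dixon limit. This is 5.20% of the sets of 6 cows, where chance gives about 1 in 20. The scale was log2(CPM + 0.5) for the 246 sets of gene values, and unlogged for total counts and shares of short identifiers. No cause was tested.

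Shweta Kapila high 1 had the lowest value of its class for PROX1 (5.25 CPM, others 10.4 to 15), RALGPS2 (97.9 CPM, others 186.6 to 219 CPM) and the cholesterol exporter ABCA1 (5.38 CPM, others 16.4 to 22.8). Shweta Kapila high 2 was lowest for PLIN2 (21.8 CPM, others 49.8 to 66.1), CCT5 (81.7 CPM, others 108 to 125) and CD14 (12.8 CPM, others 35.1 to 62.7). Shweta Kapila high 3 was lowest for TLE6 (0.560 CPM, others 0.924 to 1.19) and for the ribosomal protein gene RPS29 (0.560 CPM, others 11.9 to 25.6), and had the largest library (27.2 M counts, others 16.4 to 19.7). Gir high 2 stood above its class for DPEP1 (0.326 CPM, others 0 to 0.0633) and Gir high 3 for FADS2 (1.29 CPM, others 0.213 to 0.489). Among low-yielding cows, Gir low 3 was lowest for the T cell surface gene CD6 (67.9 CPM, others 119 to 166) and Shweta Kapila low 3 for ABCA1 (7.88 CPM, others 21.4 to 28.9).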

How the results depend on the processing

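Each of the 123 genes examined, among them all genes named in the text with a yield difference, kept the direction of its log2 fold change over both breeds in all of its 22 to 23 alternatives, while 42 of them moved by over 1.5 times when 1 cow was left out. The sign within each breed was followed too, as an alternative added after seeing the data. Of the 121 of these genes with a shared sign, 85 kept it with any 1 cow left out, among them all 24 of lowest p, and 36 lost it without some cow, for example S100A9, CSF3R and GPX1 without Shweta Kapila high 1. Without the 3 largest libraries, which leaves low 3 as the only low-yielding Shweta Kapila cow, 13 lost it. The genes were picked with the values of these same cows, most for a shared sign and low p, so kept signs are no separate support. The count of 0 genes called over both breeds was 3 with DESeq2 (PPIC, KCNT1 and DCSTAMP, adjusted p = 0.0161, 0.0076 and 0.00075) and 0 under every other alternative run, with 375 (without Shweta Kapila low 2) to 1537 (without Shweta Kapila low 3) genes at an unadjusted p under 0.05 as cows were left out. The count of 0 genes whose difference differed between the breeds was 9 with DESeq2, 1308 with limma-voom and sample weights (0.254 for Shweta Kapila low 3 to 2.32 for Gir high 2), and 0 to 1 with each cow left out (1 without Shweta Kapila low 1). The 61 genes free of overlap became 96 to 311 with a cow left out and 575 without the 3 largest libraries, where fewer cows must be apart by construction. The share of genes with the same sign ran from 44.6% (without Gir low 3) to 60.8% (without Gir low 1), and was 47.7% with no filter on low counts, 50.1% without the 3 largest libraries and 52.6% among genes of at least 0.25 log2 units in each breed.

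Replicate numbers were not taken as pairs of cows in the main fit. Deviations of same-numbered cows from their group means had r of −0.06, −0.06 and 0.01 in Gir and −0.51, −0.13 and −0.56 in Shweta Kapila. Cows of different numbers ran from −0.28 to 0.53 in Shweta Kapila (0.53 for high 1 with low 3). Deviations within a group of 3 cows are tied to each other, so these values cannot settle whether cows were paired. With the replicate block 0 genes were called for either result, and 273 had an unadjusted p under 0.05.

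With 3 cows per group and 14.2 to 27.2 M counts per cow, the biological coefficient of variation was 0.382. Low genes such as PPIC, TLE6, CRYAB, AREG and DPEP1 rest on few counts. The counts and medians of the gene lists without single cows, without the 3 largest libraries or with a covariate were added after seeing the data.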

Other observations

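The counts of the following lists were left out of the account above. Erythroid genes were higher in both breeds for 4 of 8 tested and lower for 1, and the count of 4 was 2 without Gir high 3, the cow with the highest ALAS2 value (528 CPM). Eosinophil and basophil genes were lower in both breeds for 4 of 8 and higher for 0, a count that no cow left out moved by over 1.5 times. Gamma-delta T cell genes were lower for 3 and higher for 0 of 4, and lower for 0 without Shweta Kapila low 2. Plasma cell genes were lower for 2 and higher for 1 of 10 (20% and 10%), and lower for 0 without Gir low 1. Platelet genes were lower for 2 and higher for 2 of 12 (16.7% each), and lower for 0 and higher for 4 without Gir low 2. Class I antigen presentation genes were lower for 3 of 14 (21.4%) and higher for 0, with 1 to 5 lower as cows were left out. Class II genes were lower for 1 and higher for 1 of 10 (10% each), with 1 to 4 lower and 0 to 5 higher as cows were left out. Unfolded protein response genes were higher for 6 and lower for 3 of 21 (28.6% and 14.3%), with 5 to 9 higher as cows were left out.

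Among further genes chosen after their values were seen, 2 genes of the suppressor of cytokine signalling family were at positive values, CISH at log2 fold changes of 0.19 in Gir and 1.01 in Shweta Kapila and SOCS3 at 0.41 and 0.44, whereas SOCS2 of the same family was at −0.43 and −1.04. The shared sign was lost for CISH without Gir low 3 and for SOCS3 without Shweta Kapila high 1. The fatty acid oxidation gene ACADS, the short-chain acyl-CoA dehydrogenase, was at log2 fold changes of 0.54 and 0.57. BDH1, which turns acetoacetate and beta-hydroxybutyrate into each other, was at log2 fold changes of −0.51 and −0.34. The B cell genes BANK1 and POU2AF1 shared a sign, at log2 fold changes of −0.09 and −1.18 and at −0.08 and −1.04; both lost it without Gir low 3, as ACADS did without Shweta Kapila high 1. None of these passed edgeR's test over both breeds, nor its test of the difference between the breeds.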
